A study of Mus musculus with 2 samples.

Results

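Mouse zinc finger genes named Zfp or Zbtb followed by a number were followed in a thymoma cell line in which an E47 fusion protein had been switched on. They were found by their symbols in the platform's probe annotation. The search returned 146 genes with 153 probes, of 10208 named genes and 20289 probes on the array. Of the 146, 21 carry the name Zbtb and 125 the name Zfp. Most encode transcription factors that bind DNA through fingers held by 2 cysteines and 2 histidines around a zinc ion. The name is no guarantee of that: Zbtb8os encodes a cofactor of tRNA ligation, and Zfp36 and Zfp36l1 encode proteins that bind mRNA and speed its decay.

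The Zbtb proteins join such fingers to a BTB domain, which pairs the proteins and recruits corepressors with histone deacetylases. Many Zfp proteins carry a KRAB domain instead, which recruits Trim28 (KAP1) and the histone methyltransferase Setdb1 to silence chromatin, often at transposable elements. In thymocytes, Zbtb7b (ThPOK) directs cells to the CD4 lineage, and Zbtb17 (Miz-1), a partner of Myc, is needed in early lymphoid progenitors of the mouse.

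The cells were 1F9, a line from a thymoma of an E2A-deficient mouse, which lacks the E2A proteins E12 and E47. One culture had received a retrovirus encoding E47-ER (titled ER47TX), in which E47 is joined to part of the oestrogen receptor and is thereby made inducible by tamoxifen. The control culture had received the bHLH region of E47 without its N-terminal activation domain, fused in the same way (bHLH-ER, titled bHLHERTX). Both were E2A-/-, both were treated with 4-hydroxytamoxifen for 6 hours from 1 day after infection, and both were enriched with beads for the human CD25 marker that each virus encodes. The construct of each array was taken from its title, since the longer descriptions name an E47 fusion for each.

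Each construct had 1 single-colour array, so no value below has a replicate check and no p-value can be given. No uninfected or untreated array was analysed here, and each difference can reflect E47-ER, bHLH-ER or both. In such a mixed RNA sample, fewer cells of one kind and less RNA per cell cannot be told apart. Values are the deposited scaled intensities. A difference is the log2 intensity centred on the array median, E47-ER minus control. A gene was called measured if its centred log2 intensity, averaged over the arrays, was at least the probes' median, which is an intensity of 1.02 on the E47-ER array and 1.03 on the control array. The median difference of all 5563 measured named genes was 0.11. The only error that the arrays hold is that between probes of the same gene. Its pooled SD was 0.20 on the log2 difference (95% interval 0.17 to 0.25) over 55 measured genes, and it leaves out the spread between cultures. Of 8 T lineage markers, 7 had a probe and all 7 were measured. Their summed intensities were 423 on the E47-ER array and 273 on the control array. Of the 7, 6 were higher with E47-ER, among them Ptcra (4.25-fold), Rag1 (2.02-fold) and Cd8b1 (1.81-fold). The other, Cd3e, was 1.39-fold lower. Of the 12 myeloid, erythroid, B lineage and fibroblast markers with a probe, 3 were measured. Of these, Itgam was 1.68-fold and Sparc 1.14-fold higher and Cd79a 1.15-fold lower. The part of these differences in the results below was not tested. The annotation used here names no probe for Tcf3, which encodes E47, so the construct could not be checked.

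Of the 146 genes, 90 were measured, 53 had a positive value on both arrays but lay below the level limit, and 3 were at or below 0 on an array. The measured share of 61.6% compares with 54.5% of all named genes. One gene of the 90, Zbtb18, was at least 2-fold higher with E47-ER, and none was 2-fold lower. Of all measured named genes, 1.35% lay past 2-fold on the higher side and 0.27% on the lower side, so the count among the zinc finger genes is close to that of all genes. With each array centred on its median, the other 89 lay within 1.5-fold.

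**Figure D1:**
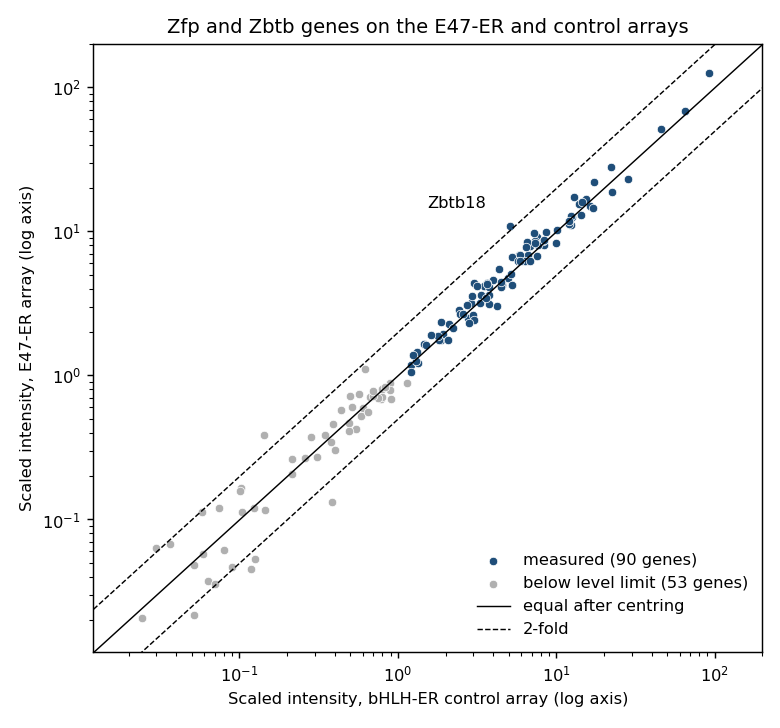
Scaled intensity on the E47-ER array (vertical, log axis) against the bHLH-ER control array (horizontal, log axis) for each Zfp or Zbtb gene with a positive value on both. Blue points are the 90 measured genes and grey points the 53 below the level limit; among the blue points only Zbtb18 lies past the dashed 2-fold line, while 6 grey points lie beyond the 2-fold lines.

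Zbtb18 (Entrez gene 30928, on chromosome 1), also known as RP58, had an intensity of 10.8 on the E47-ER array and 5.14 on the control array. It was 2.13-fold higher with E47-ER, a log2 difference of 1.09, and it ranked 54 by difference among the 5563 measured named genes. The gene encodes a BTB zinc finger repressor whose preferred DNA site contains an E-box-like core. In mouse muscle cells it is a target of the bHLH factor MyoD. Probes of a like level had a robust SD of 0.25 in their log2 differences. The gene had 1 probe, so probes of the gene could not be compared. Its place past the 2-fold limit depended on the scaling: the log2 difference was 0.98 with equal 75th percentiles, 0.99 after quantile normalization, 0.99 after loess on level and 0.96 when centred on the measured named genes. Under these scalings no measured member was past 2-fold. The first of them shifted all measured named genes to a median of -0.0023.

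RefSeq promoter windows (GRCm38.p6, 250 bases before to 50 after each annotated start) were read for the E-box, the DNA element that E47 binds. Windows were found for 125 of the 146 genes. The motif searched was CANNTG, which covers both strands. Within it, matches with the letters CAGCTG were counted, which also read alike on both strands. Matches with the letters CAGGTG were counted too, and here the opposite strand was searched as well, by its complement. Zbtb18, included as the gene past 2-fold, has 5 windows, some overlapping, of which 3 are shown. Of those left out, the window from 177444411 holds 4 CANNTG matches, of which 2 are CAGCTG. The window from 177444688 holds 1 match, CATCTG. The windows of Zfp146 and Zfp120 follow as those of the genes with the next highest and the lowest difference. Each CANNTG is in capitals.
Zbtb18, chr1:177442101-177442400, plus strand: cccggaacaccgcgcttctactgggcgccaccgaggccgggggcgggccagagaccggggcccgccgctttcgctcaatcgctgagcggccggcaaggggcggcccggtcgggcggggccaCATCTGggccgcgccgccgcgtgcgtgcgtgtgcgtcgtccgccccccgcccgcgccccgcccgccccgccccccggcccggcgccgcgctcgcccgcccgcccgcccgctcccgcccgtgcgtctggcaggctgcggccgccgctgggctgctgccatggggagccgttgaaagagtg
Zbtb18, chr1:177444403-177444702, plus strand: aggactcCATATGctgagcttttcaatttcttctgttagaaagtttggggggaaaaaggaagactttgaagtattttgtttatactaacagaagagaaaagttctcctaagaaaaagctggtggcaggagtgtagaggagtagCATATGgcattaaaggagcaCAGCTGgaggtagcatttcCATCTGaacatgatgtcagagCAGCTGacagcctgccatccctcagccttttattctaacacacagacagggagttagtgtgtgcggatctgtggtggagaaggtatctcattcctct
Zbtb18, chr1:177445571-177445870, plus strand: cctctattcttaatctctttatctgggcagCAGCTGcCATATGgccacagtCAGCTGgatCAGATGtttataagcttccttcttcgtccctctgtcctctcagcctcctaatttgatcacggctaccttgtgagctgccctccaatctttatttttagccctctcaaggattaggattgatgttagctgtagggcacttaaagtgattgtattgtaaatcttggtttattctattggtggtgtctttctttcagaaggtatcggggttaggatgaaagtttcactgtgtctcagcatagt
Zfp146, chr7:30169692-30169991, minus strand: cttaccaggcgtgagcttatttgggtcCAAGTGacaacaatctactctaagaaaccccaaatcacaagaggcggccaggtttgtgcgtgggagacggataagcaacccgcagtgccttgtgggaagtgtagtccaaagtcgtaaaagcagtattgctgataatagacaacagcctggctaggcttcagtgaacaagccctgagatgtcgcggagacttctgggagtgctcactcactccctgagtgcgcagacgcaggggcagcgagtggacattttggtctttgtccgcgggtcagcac
Zfp120, chr2:150136629-150136928, minus strand: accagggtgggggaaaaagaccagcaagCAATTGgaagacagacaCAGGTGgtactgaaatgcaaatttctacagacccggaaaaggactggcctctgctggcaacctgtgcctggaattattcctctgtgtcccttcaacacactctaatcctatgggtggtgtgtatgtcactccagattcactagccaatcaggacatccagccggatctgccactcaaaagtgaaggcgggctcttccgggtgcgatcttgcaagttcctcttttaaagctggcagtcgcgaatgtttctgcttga

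The first Zbtb18 window holds 1 match, with the letters CATCTG. The second holds 5, of which 2 are CAGCTG, and the third holds 4, again with 2 CAGCTG. Of the 3 patterns, CANNTG occurred in 68.6% of the 159 windows of the zinc finger genes and in 72.3% of all 32851 windows. CAGCTG occurred in 13.8% of the members' windows and 16.3% of all windows, and CAGGTG in 15.1% and 20.2%. Zfp120, with the lowest difference, has 1 CAGGTG, a form that the Zbtb18 windows lack. Of the 77 measured members with a window, the 20 with CAGCTG or CAGGTG had a median difference of 0.12, and the 57 without had a median of 0.10. Differences were positive in 11 of the 20 and in 36 of the 57, beside 66.7% of all measured named genes. The contrast was not tested. A match describes the letters of a window and is no evidence of binding.

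The measured members as a group had a median difference of 0.08, beside 0.11 for all measured named genes. Differences were positive in 55 of 90 members (61.1%) and in 66.7% of all measured named genes. Scaling moved these shares: under equal 75th percentiles 43 of the 90 members and 2765 of the 5563 genes were positive, and the members' median was -0.03. Of the 90 members, 53 lay within 1 SD between probes of one gene, 27 above it and 10 below it, beside 54.5%, 34.5% and 11.02% of all measured named genes. With equal 75th percentiles the balance turned, to 12 members above (13.3%) and 21 below (23.3%). Of all measured named genes, 20.3% then lay above and 20.5% below. Statements on this SD therefore hold for the median scaling. Under the median scaling all but 1 member were within 1.5-fold, which is 98.9%, against 93.3% of all measured named genes. At that limit 5.41% of all measured named genes were higher and 1.24% lower. Over all levels, the robust SD of the differences was 0.22 among the members and 0.24 among all measured named genes. Taken so, the middles had nearly the same width and the contrast lay in the tails. The 5th and 95th percentiles were -0.26 and 0.44 in the members, against -0.33 and 0.60 in all measured named genes. This did not hold at every level. Among the 30 measured members of lowest level the robust SD was 0.19, against 0.27 in 1653 measured named genes of like level. The middle was narrower there. Among the 30 of middle level it was 0.26, as in 1139 genes of like level. Among the 30 of highest level it was 0.22, against 0.21 in 2771 genes. These contrasts were not tested.

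**Figure D2:**
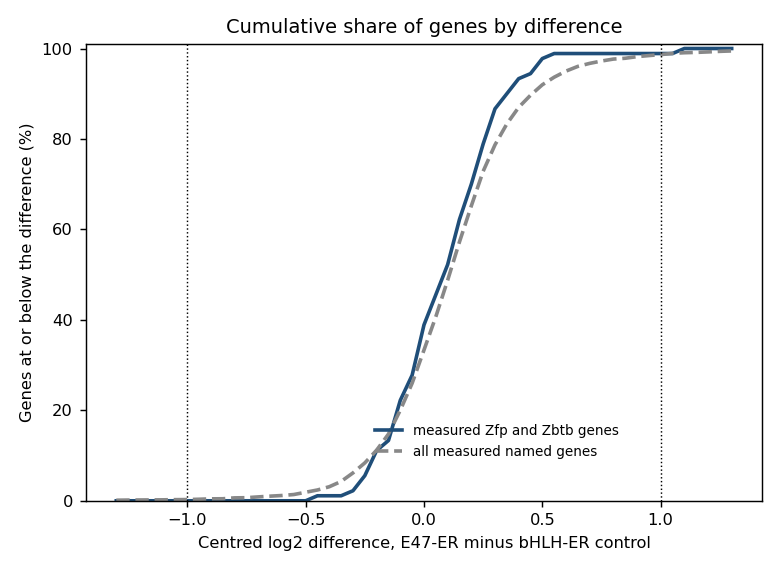
Percentage of genes (vertical) at or below each centred log2 difference, E47-ER minus bHLH-ER control (horizontal), for the 90 measured Zfp and Zbtb genes (solid) and the 5563 measured named genes (dashed); dotted lines mark 2-fold. At a difference of 0.35 the solid curve stands at 90% and the dashed curve at 83.3%, and 1 member lies beyond 0.55.

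The 9 Zfp genes that followed Zbtb18 in difference were between 0.34 and 0.54 higher on the log2 scale. Zfp146, whose protein (OZF in human) consists almost wholly of fingers, had 4.35 on the E47-ER array and 3.02 on the control array, a 1.46-fold difference. Zfp706, which encodes a small protein with a single finger, had 125 on the E47-ER array and 91.3 on the control array. Zfp830 (Omcg1), a gene needed by the early mouse embryo, had 9.78 with E47-ER and 7.19 with bHLH-ER. All of these were brighter with E47-ER by more than 1 SD between probes, yet by less than 1.5-fold.

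Zfp330, which encodes a nucleolar protein, had 17.5 on the E47-ER array and 12.9 on the control array. Zfp160 had 4.19 with E47-ER and 3.17 with the control. Zfp553 had 8.41 on the E47-ER array against 6.57 on the control array. All 3 were again brighter with E47-ER, by 1.29-fold to 1.37-fold. Zfp410, an activator of the chromatin remodeller gene Chd4, had 21.96 with E47-ER and 17.4 with bHLH-ER. Zfp639 had 28.1 on the E47-ER array and 22.2 on the control array. Zfp655, whose human protein binds the signalling protein Vav1, had 5.44 with E47-ER and 4.33 with the control, a 1.27-fold difference. These 6 genes spanned log2 differences of 0.34 to 0.45.

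The 10 members with the lowest differences lay between -0.47 and -0.21. Zfp120 was 1.39-fold lower with E47-ER, at 3.03 on the E47-ER array and 4.25 on the control array. Zfp358 was 1.25-fold lower, with 2.41 on the E47-ER array and 3.04 on the control array. Zfp617 had 4.25 with E47-ER and 5.23 with bHLH-ER. All 3 were dimmer with E47-ER by more than 1 SD between probes, and none by 1.5-fold under the median scaling. Centred on the measured named genes, Zfp120 had a log2 difference of -0.61, which is past 1.5-fold.

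Zfp59 had 2.30 on the E47-ER array and 2.80 on the control array. Zfp428 was at 23.2 with E47-ER and 28.2 with the control. Zfp277, which in mouse fibroblasts works with Polycomb proteins at the Ink4a locus, had 18.7 on the E47-ER array and 22.4 on the control array. Zfp804a, whose human counterpart is a schizophrenia risk gene, had 8.31 with E47-ER and 9.93 with bHLH-ER. These 4 genes were between 1.18-fold and 1.20-fold lower. Zfp13 had 3.16 on the E47-ER array and 3.76 on the control array. Zfp386 had 14.6 with E47-ER and 17.02 with the control. Zfp606 had 1.77 on the E47-ER array and 2.06 on the control array. The differences of these 7 genes lay between -0.27 and -0.21, just outside 1 SD between probes.

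**Figure D3:**
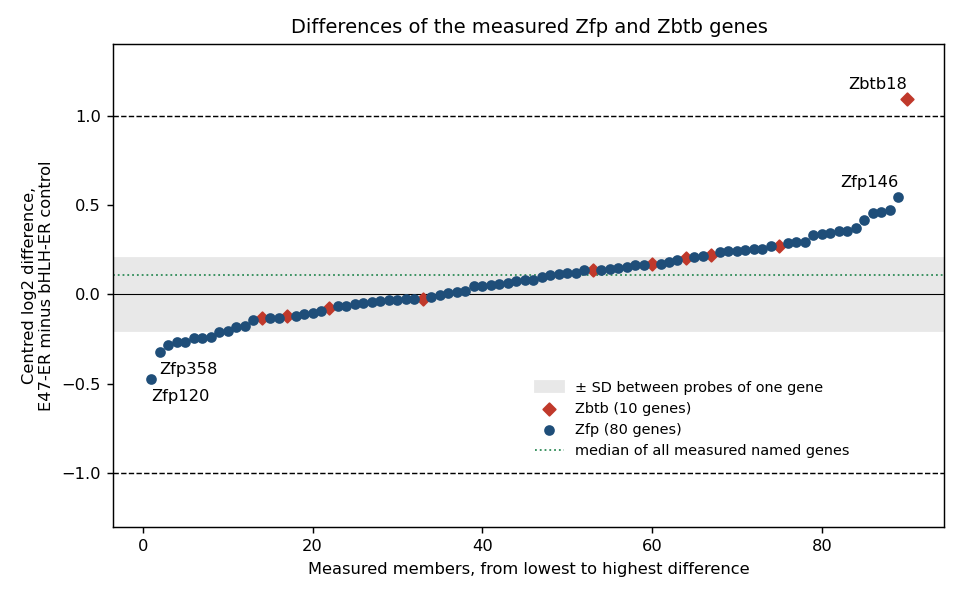
Centred log2 difference, E47-ER minus bHLH-ER control (vertical), of the 90 measured members ordered from lowest to highest (horizontal); red diamonds are the 10 Zbtb genes, blue circles the 80 Zfp genes, the grey band is ± 1 SD between probes of one gene (0.20), dashed lines mark 2-fold and the dotted line the median of all measured named genes. Zbtb18 stands alone at 1.09, followed by Zfp146 at 0.54, while the lowest member is Zfp120 at -0.47.

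Of the 21 Zbtb genes 10 were measured, 6 with a positive and 4 with a negative difference, and their median was 0.15. Without Zbtb18 the measured ones ranged from -0.13 to 0.27. Zbtb48, which encodes a telomere-binding protein (TZAP), had 4.17 on the E47-ER array and 3.49 on the control array, a difference of 0.27. Zbtb6 had 4.62 with E47-ER and 4.004 with the control. Zbtb41 had 1.67 on the E47-ER array and 1.46 on the control array. The difference of Zbtb6, 0.22, and that of Zbtb41, 0.20, lay just past 1 SD between probes.

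Zbtb17 (Miz-1) had nearly equal values of 2.28 with E47-ER and 2.10 with bHLH-ER, a 1.10-fold difference. Zbtb14, first described as a repressor acting at the mouse Myc promoter, had 4.26 on the E47-ER array and 4.54 on the control array. Zbtb21 was at 1.17 with E47-ER and 1.203 with the control. Zbtb22 had 6.79 on the E47-ER array and 7.52 on the control array, and Zbtb44 had 13.1 with E47-ER and 14.4 with bHLH-ER. Zbtb8os, the tRNA ligation cofactor gene, had 51.2 on the E47-ER array and 46.02 on the control array. The log2 differences of these 6 genes lay within 1 SD between probes.

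The other 11 Zbtb genes were below the level limit, among them several with known roles in lymphocytes. Zbtb7b (ThPOK) had 0.265 on the E47-ER array and 0.259 on the control array. Zbtb7a (LRF), a regulator of B against T cell fate, had 0.471 with E47-ER and 0.489 with bHLH-ER. Zbtb32, a repressor of activated lymphocytes that binds Gata3, had 0.882 on the E47-ER array and 1.15 on the control array. For Zbtb20 the values were 0.891 with E47-ER and 0.897 with the control. In this group Zbtb7b, Zbtb7a and Zbtb20 had differences between -0.04 and 0.05, while that of Zbtb32 was -0.37 (1.29-fold lower).

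Zbtb24, mutated in a human immunodeficiency with unstable centromeres, had 0.741 on the E47-ER array and 0.565 on the control array, a difference of 0.41. Zbtb33 (Kaiso), which binds methylated DNA, had 0.790 with E47-ER and 0.888 with bHLH-ER. Zbtb3 had 0.372 on the E47-ER array and 0.282 on the control array, a difference of 0.42. Zbtb5 was at 0.681 with E47-ER and 0.778 with the control, and Zbtb8b at 0.207 with E47-ER and 0.216 with the control. Zbtb8a had 0.0610 on the E47-ER array and 0.0802 on the control array, and Zbtb37 had 0.0376 with E47-ER and 0.0632 with bHLH-ER. None of the 11 dim Zbtb genes reached 2-fold. Probes of a like level had a robust SD of 0.27 at Zbtb20, Zbtb32, Zbtb33 and Zbtb5, near that of measured genes, but of 0.96 at Zbtb8a and 1.32 at Zbtb37.

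**Figure D4:**
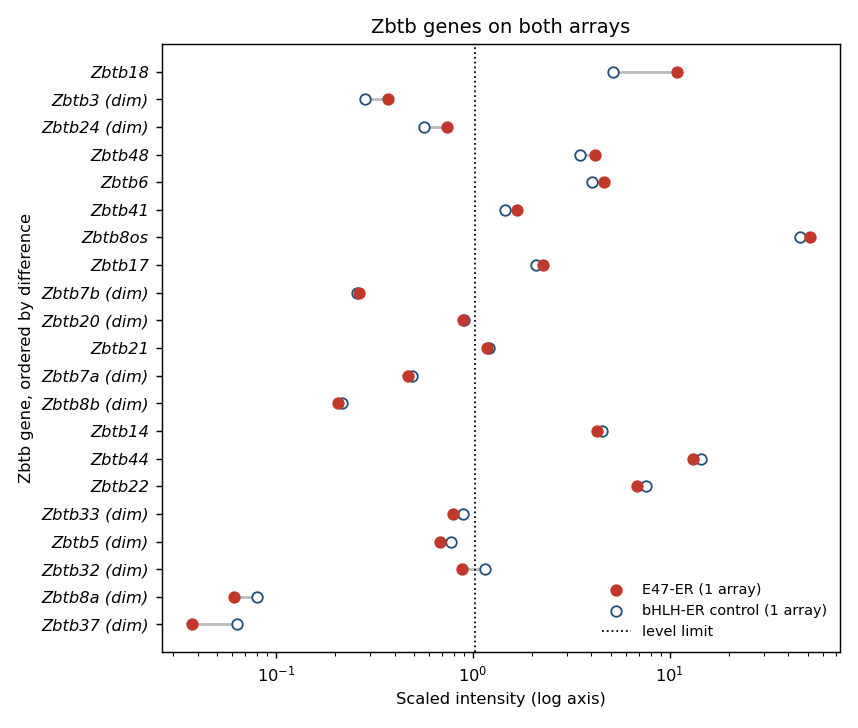
Scaled intensity (horizontal, log axis) of each of the 21 Zbtb genes (rows, ordered by difference) on the E47-ER array (filled red) and the bHLH-ER control array (open blue); the dotted line is the level limit and genes below it are marked dim. The points of Zbtb18 lie at 10.8 and 5.14, while those of Zbtb7b, Zbtb20 and Zbtb21 nearly coincide.

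Among the mRNA-binding proteins that share the Zfp name, Zfp36l1, which with Zfp36l2 restrains proliferation in mouse thymocytes, had 8.62 on the E47-ER array and 8.25 on the control array, a difference of 0.08. Zfp36 (tristetraprolin) was below the level limit, at 0.117 with E47-ER and 0.145 with bHLH-ER. Zfp346, which binds double-stranded RNA, had 6.62 on the E47-ER array and 5.28 on the control array, a 1.27-fold difference. Of these genes, the last was outside 1 SD between probes and Zfp36l1 was within it.

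The 61 measured Zfp genes between the 10 highest and the 10 lowest members had log2 differences from -0.18 to 0.34. Zfp207 (BuGZ), which binds spindle microtubules in dividing cells, was nearly equal, at 68.3 on the E47-ER array and 64.4 on the control array. Zfp148 (ZBP-89), a factor that binds GC-rich promoters, had 8.55 with E47-ER and 7.31 with bHLH-ER, a difference of 0.24. Zfp638 (NP220), which silences unintegrated retroviral DNA, had 7.85 on the E47-ER array and 6.46 on the control array, a difference of 0.29. Of these genes, Zfp207 was within 1 SD between probes of one gene, and the other two were outside it.

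Below the level limit, 6 of the 53 dim members were past 2-fold, 2 higher and 4 lower, and none of the 6 exceeded an intensity of 0.387 on either array. Of the 4379 named genes below the limit, 9.61% were 2-fold higher and 9.25% were 2-fold lower, so such differences were common there. The probes of all genes were placed in 20 bins of level, and in bins above the limit log2 differences had robust SDs of 0.18 to 0.28. Zfp287 had 0.387 on the E47-ER array and 0.142 on the control array, a log2 difference of 1.46. Zfp354b had 0.132 on the E47-ER array and 0.384 on the control array, a difference of -1.53. Both lay in a bin with a robust SD of 0.48. Both also passed a level limit at the 25th percentile. Above that limit 129 of 7856 named genes were 2-fold higher and 53 were lower. Zfp42 (Rex1), a marker of embryonic stem cells, had 0.0630 with E47-ER and 0.0297 with bHLH-ER, in a bin with a robust SD of 1.32. The others, all lower, were Zfp768, Zfp819 and Zfp979, in bins with robust SDs of 0.86, 0.96 and 2.33 in that order.

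The 3 genes with no log2 difference were dim on the other array too. Zfp354a was listed at -0.0295 on the control array, with 0.103 on the E47-ER array, and Zfp454 at -0.0119 on the control array, with 0.0801 on the E47-ER array. Zfp521, whose human and mouse protein binds the B lineage factor Ebf1, was listed at -0.0062 on the E47-ER array, with 0.0763 on the control array. The related gene Zfp423 was dim as well, at 0.1197 with E47-ER and 0.0746 with bHLH-ER.

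For 6 members several probes could be compared, and the log2 differences of probes of the same gene had a pooled SD of 0.13. The 2 probes of Zfp932 gave differences of 0.12 and 0.16, and the 3 of Zfp846 gave 0.03, 0.15 and 0.18. The probes of Zfp959 pointed in opposite directions, at -0.10 and 0.23. For Zfp772 they gave 0.24 and 0.03, and for Zfp53 0.01 and -0.06. One probe of Zfp60 lay below the level limit; the pair gave -0.03 and 0.15. All 6 genes lay within 1 SD between probes of one gene (0.20) on average. Many Zfp genes have close relatives, and no source used here says which transcripts each probe detects, so values of related genes are uncertain in that respect.

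Of the partners through which these factors act, 9 of 12 listed KRAB cofactors had a probe named in the annotation used here, and Setdb1 was not among them. All 9 were measured and none was past 2-fold, at which 1.35% of all measured named genes were higher and 0.27% lower, and a list of this length would seldom hold one. Their median was 0.18. Trim28, the corepressor that KRAB domains bind, had 75.8 on the E47-ER array and 77.6 on the control array, a difference of -0.02. The highest difference was that of the heterochromatin protein gene Cbx5, at 3.30 with E47-ER and 2.27 with bHLH-ER (1.46-fold). The lowest was that of the DNA methyltransferase gene Dnmt3b, at 13.3 on the E47-ER array and 17.3 on the control array (1.28-fold lower). Of 15 listed BTB corepressor genes 11 had a named probe and 10 were measured. None of the 10 was past 2-fold, and their median was 0.08. Their extremes were the deacetylase genes Hdac3, with 23.4 on the E47-ER array and 18.8 on the control array (1.26-fold), and Hdac7, with 4.53 with E47-ER and 5.10 with the control (1.12-fold lower).

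Other BTB genes, named differently, had 3 measured members, with none past 2-fold. Bcl6, a BTB zinc finger repressor of lymphocytes, had 2.53 on the E47-ER array and 1.67 on the control array, a 1.53-fold difference. Bach1, a BTB factor with a leucine zipper, had 1.24 with E47-ER and 1.53 with bHLH-ER, a difference of -0.29. Zinc finger factors known from lymphoid development spanned a wider range than the Zfp and Zbtb genes. Of 6 measured, 2 were at least 2-fold higher and none 2-fold lower: the repressor gene Gfi1b had 2.02 on the E47-ER array and 0.622 on the control array, and Gfi1 had 6.29 on the E47-ER array and 2.88 on the control array. The share of all measured named genes past that limit was 1.35%, and a list picked with such genes in view is no independent evidence. Klf2, a regulator of T cell migration, fell short of the level limit on average but was 2.48-fold lower, at 0.618 with E47-ER and 1.54 with bHLH-ER. Gata3, which is needed for T lineage commitment, was 1.97-fold lower, at 4.97 with E47-ER and 9.92 with bHLH-ER. Ikzf1 (Ikaros) differed by -0.04. This list was chosen with results of these arrays known, and its difference from the Zfp and Zbtb genes was not tested.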

How the data were processed

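One array per construct was analysed. The table deposited by the authors holds 1 linear intensity per probe and array, with a few values below 0 and medians of 0.939 (E47-ER) and 0.950 (control), from -0.0609 to 555 and from -0.0829 to 529. No source used here gives the scanner, the background correction or the scaling. The number of arrays limits the precision.

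Probes positive on both arrays (19621 of 20289) were kept. Each array's log2 intensities were centred on their median, and probes of a gene were averaged. Symbols came from the platform annotation; looked up by Entrez gene ID in RefSeq (GRCm38.p6), none of the 10349 named probes differed. No test was made with 1 array per construct; 2-fold was the limit for a call. The members and lists were chosen with earlier results of these data known. Named were all measured members past 2-fold, the 10 highest and 10 lowest differences, all Zbtb genes, the Zfp36 genes, members positive on 1 array only, and the extremes of each list; any other member was chosen as an example with its value in view. Classes of members by protein domains had been planned and were not computed, since protein sequences were not used here. The procedure was run on simulated arrays with changes of known size. These had the same error at every level, so they do not show how reliable a call near 2-fold is here. Alternatives covered scaling, level limit, probe averaging, symbols, an added constant and a 1.5-fold limit. Python 3.11.15, pandas 2.3.3, numpy 2.4.6, scipy 1.17.1 and statsmodels 0.14.6 were used.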

Additional observations from a re-analysis of the deposited data

How the results depend on the processing

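The count of members at least 2-fold higher (1 of 90, Zbtb18) was 0 with equal 75th percentiles, after quantile normalization, after loess on level and when centred on the measured named genes; the log2 difference of Zbtb18 lay between 0.96 and 1.09 over 9 alternatives. Over all measured named genes the same scalings gave 52, 55, 56 and 50 higher genes, against 75, and 24, 19, 20 and 24 lower genes, against 15. With the level limit at the 25th percentile 2 of 124 members were 2-fold higher and 1 lower, beside 129 and 53 of 7856 named genes. With no level limit 3 of 143 members were higher and 4 lower. None of the added members past 2-fold exceeded an intensity of 0.387. With no level limit 496 of 9942 named genes were higher and 420 lower. At the 75th percentile level limit 25 of 36 members had a positive difference, beside 2106 of 2947 named genes. With 0.5 added before log2, 54 of 5570 named genes were higher and 10 lower. The members' median stayed between -0.05 and 0.09 under the 10 alternatives. Of 363 values of 42 named genes under the alternatives, 4 of members below the level limit moved by more than 1 SD between probes, and the 4 values of Zbtb18 under other scalings fell below 2-fold. No paired analysis was possible because each construct has 1 array. Dim probes limit what can be said of 56 of the 146 genes.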

Other observations

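Many Zfp genes lie in runs on the chromosomes. Of the 146 genes 62 have another Zfp gene as a direct protein-coding neighbour in RefSeq, and 38 of these were measured. Their median difference was 0.09, the lowest was Zfp617 at -0.28 and the highest Zfp146 at 0.54. None was past 2-fold, at which 1.35% of all measured named genes were higher and 0.27% lower. A group of this size would often hold none. The 52 measured members without such a neighbour had a median of 0.08 and ranged from -0.47 to 1.09, the value of Zbtb18.

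Chromosome 7 holds 35 members, of which 19 were measured, with a median of 0.11 and a range from -0.27 to 0.54. Chromosome 17 holds 17, of which 13 were measured, with a median of 0.01 and a range from -0.24 to 0.42. On chromosome 8 the median of 6 measured members was -0.04, and on chromosome 4 that of 7 was 0.17. All 4 measured members on chromosome 11 had positive differences, between 0.05 and 0.46. Of all measured named genes 66.7% had a positive difference, and no contrast between chromosomes was tested.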
